A study of Mus musculus with 18 samples.

Results

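The miRNAs described here are 8 markers of cells other than B cells, read as a check of what a bead-isolated B cell fraction still holds. They were chosen by name on the array, for the cell type in which each is known to be abundant, and are 8 of 1265 mouse miRNA probes. Of these mmu-miR-223-3p stands for myeloid cells, mmu-miR-451a and mmu-miR-144-3p for red cells, mmu-miR-126-3p and mmu-miR-126-5p for endothelium, and mmu-miR-143-3p, mmu-miR-145a-5p and mmu-miR-125b-5p for stroma. The prefix mmu, for mouse, is left out from here on.

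The study compared mice that carry an added miR-17~92 cluster, placed behind the IgH promoter with the Eμ enhancer so that B cells express it, with wild-type mice (WT). The transgenic mice came from 2 founder lines, Tg9 and Tg79. Each of the 3 groups has 3 miRNA arrays. B cells were taken from spleen with magnetic beads, and Trizol-extracted total RNA was amplified to Cy5-labelled aRNA, a description the labels give for the miRNA arrays as well. The labels give neither the age or strain of the mice nor the bead antibody, and do not tie each array to 1 animal, so p-values measure the spread between these arrays. In such bulk RNA, fewer cells of a type and less RNA per cell cannot be told apart.

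Mature miRNAs are short RNAs cut from hairpin precursors and loaded into Argonaute proteins, where the seed near the 5′ end chooses targets. Several are made mainly in 1 cell lineage, so their level in a sorted fraction can serve as a check for carried-over cells. Expression by the B cells themselves cannot be told apart from carry-over in these data. MiR-223 is switched on during granulocyte and monocyte differentiation. MiR-144 and miR-451a are made together in the red cell lineage from neighbouring hairpins, and miR-451a is matured by AGO2 without Dicer, so it has no regular partner strand. MiR-126 lies in an intron of Egfl7, a gene of endothelial cells, and is also made by blood progenitors and megakaryocytes. MiR-143 and miR-145a are the abundant pair of smooth muscle, and miR-125b is made by fibroblasts and other mesenchymal cells as well as blood stem cells.

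The mature sequences of 5 of the 8 markers were in the RefSeq table used here (build GRCm38.p6). They are shown with the seed in capitals (bases 2 to 8), which was used to look for miRNAs that share it. Whether a probe also reads miRNAs that share the seed was not tested. RefSeq lists miR-126-3p as miR-126a-3p. MiR-126-5p, miR-143-3p and miR-145a-5p are named only.
mmu-miR-223-3p, chrX:96242884-96242905, plus strand: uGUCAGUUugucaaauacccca
mmu-miR-451a, chr11:78073186-78073207, plus strand: aAACCGUUaccauuacugaguu
mmu-miR-144-3p, chr11:78073047-78073066, plus strand: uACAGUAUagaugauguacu
mmu-miR-126-3p, chr2:26591402-26591423, plus strand: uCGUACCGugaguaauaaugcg
mmu-miR-125b-5p, chr9:41581940-41581961 and chr16:77646279-77646300, plus strand: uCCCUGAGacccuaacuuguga
No other of the 1679 mature names in that table carried the seed of miR-223-3p, miR-451a, miR-144-3p or miR-126-3p. The seed of miR-125b-5p was shared by 4 others, namely miR-125a-5p, miR-351-5p, miR-6367 and miR-6394, and the same mature miR-125b-5p is encoded at 2 loci. One probe therefore reads both miR-125b loci together.

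The red-cell pair is shown as precursors too, with the mature marker in capitals, because the data separate its 2 members. On chromosome 11 the mature miR-144-3p and miR-451a lie 119 bases apart on the same strand.
Mir144 hairpin, chr11:78073005-78073070: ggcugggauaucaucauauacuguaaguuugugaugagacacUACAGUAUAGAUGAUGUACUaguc
Mir451a hairpin, chr11:78073170-78073241: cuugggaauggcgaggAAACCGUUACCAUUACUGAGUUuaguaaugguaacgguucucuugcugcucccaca
In Mir144 the marker occupies bases 43 to 62 of 66, in the 3′ arm. In Mir451a it occupies bases 17 to 38 of 72 and runs across the loop.

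The arrays and the label of the fraction were read first. The background limit, the 95th percentile of an array's negative control spots, lay between 46.8 and 76.0 intensity units, and 24.4% to 42.6% of probes exceeded it, with the lowest shares in Tg79. All 6 listed lymphocyte miRNAs exceeded the limit on all 9 arrays. MiR-150-5p, made in mature B and T cells, stood at 7.10 to 203.5 times the limit. MiR-17-5p of the transgene read 10.26 to 10.57 in wild type and 13.12 to 13.54 in Tg79 on the normalized log2 scale. In Tg9 it read 13.25 on Tg9-1, but 10.60 and 10.86 on the arrays labelled Tg9-2 and Tg9-3, close to wild type, so the differences of the tested markers between Tg9 and wild type are given with and without them. Slides, as the shared prefix of the scanner files gives them, are 3. The first holds WT1 and all Tg9 arrays, the second WT2 and all Tg79 arrays, and the third WT3. Tg79 and Tg9 share no slide, so in a fit that leaves out slide their difference cannot be told apart from one between slides.

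Most of the marker miRNAs were at or near background in these B cell fractions, and only the myeloid marker miR-223-3p and the red-cell marker miR-451a were above the limit on all 9 arrays. MiR-126-3p exceeded it on 8 arrays, miR-143-3p on 7, and miR-145a-5p and miR-125b-5p on 5 each. MiR-126-5p exceeded it on 1 array and miR-144-3p on 0. Of the 1265 probes 651 exceeded the limit on no array and 282 on all 9, so both ends are common on this array. The markers above the limit numbered 4 to 5 on a wild-type array, 3 to 7 on a Tg9 array and 3 to 6 on a Tg79 array.

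**Figure D1:**
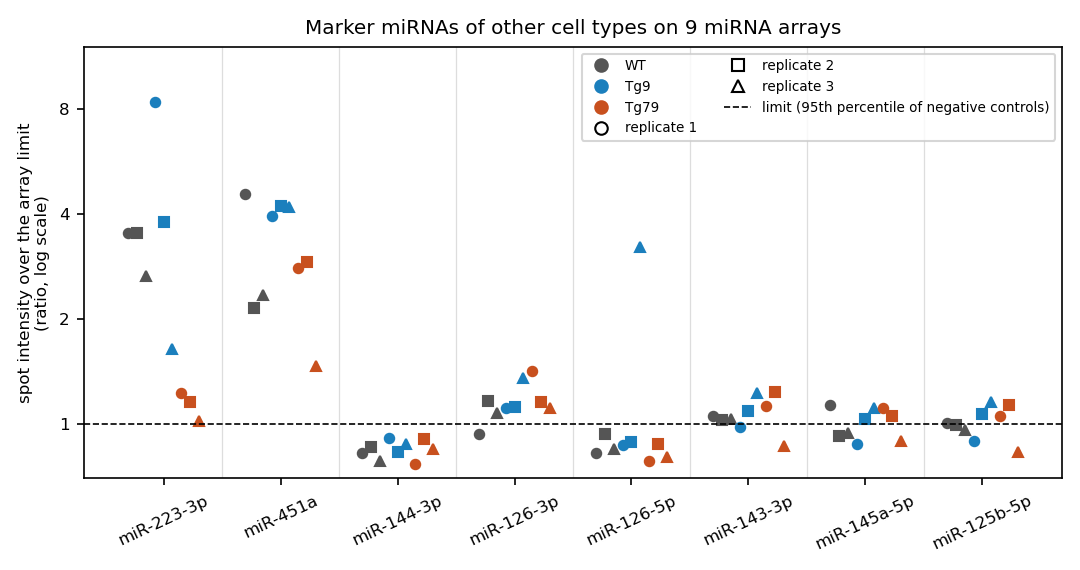
Spot intensity of each marker miRNA divided by the background limit of the same array (ratio, log axis), for 9 arrays coloured by group and shaped by replicate number, with the limit as a dashed line. MiR-223-3p and miR-451a lie above the line on every array, miR-144-3p lies below it on every array, and the single high miR-126-5p point is the array labelled Tg9-3.

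The sum of the 8 normalized linear intensities ran from 659 to 745 over wild type, from 765 to 1199 over Tg9 and from 562 to 872 over Tg79. Tg9-1 gave the 1199, through miR-223-3p. Without miR-223-3p and miR-451a the sum over the other 6 ran from 376 to 393 over wild type, from 385 to 523 over Tg9 and from 380 to 507 over Tg79. These sums hold the offset of 50 units added to each spot, so most of the smaller sum is that offset.

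Over the 6 tested markers limma called 0 in each of the 3 comparisons. Of all 501 probes it called 4.39% in Tg79 against wild type, 0% in Tg9 against wild type and 0% in Tg79 against Tg9. At an unadjusted p under 0.05 there were 1, 0 and 0 of the 6 markers, against 24.6%, 0.599% and 15.4% of all probes. In Tg79 5 of the 6 differences were above 0, with a median of 0.22, where the median over all tested probes was -0.04. In Tg9 5 of 6 were above 0, with a median of 0.09 beside -0.01 over all. With Tg9-1 as the only Tg9 array 3 of 6 were above 0, with a median of 0.08 beside -0.03 over all. The tested markers are those above the limit on at least 3 arrays, so these counts leave out miR-144-3p and miR-126-5p. The share of all tested probes above 0 was not counted. The lowest normalized log2 value among probes above the limit averaged 6.04 over the wild-type arrays and 6.21 over the Tg79 arrays. MiR-126-3p and the stromal markers lay near the limit, and whether other probes near it were likewise higher in Tg79 was not tested. The medians thus do not set the markers apart from such probes.

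**Figure D2:**
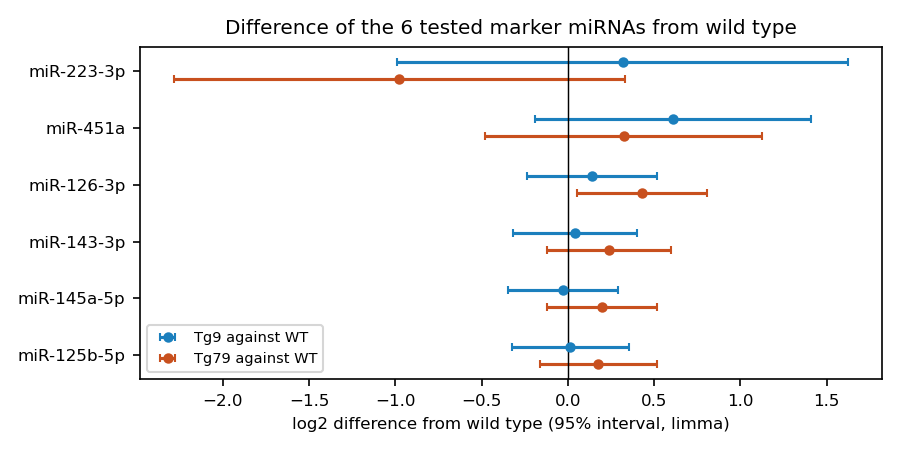
Log2 difference of Tg9 (blue) and Tg79 (orange) from wild type for the 6 tested markers, with 95% intervals from limma on the horizontal axis. The Tg79 interval of miR-126-3p, from 0.05 to 0.81, is the one that lies wholly to one side of 0, before adjustment over all probes.

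MiR-223-3p, the myeloid marker, varied most. Its spot read 215, 188 and 194 intensity units on WT1, WT2 and WT3. In Tg9 it read 479 on Tg9-1, and 179 and 76.9 on the arrays labelled Tg9-2 and Tg9-3. On Tg79-1, Tg79-2 and Tg79-3 it read 93.3, 66.8 and 63.1. The wild-type arrays were close together, Tg9 spread on both sides of them, and all 3 Tg79 arrays were lower than all 3 wild-type arrays. On Tg79-3 the spot was 1.02 times the limit, and on Tg9-1 it was 8.37 times. All 3 Tg79 spots were within 1.23 times the limit, which leaves little room for a lower reading.

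On the normalized log2 scale miR-223-3p averaged 7.40 ± 0.24 over the wild-type arrays, 7.71 ± 1.28 over Tg9 and 6.42 ± 0.25 over Tg79 (SD, n = 3). The log2 difference of Tg79 from wild type was -0.98 ± 0.56 (SE; 95% interval -2.29 to 0.33), a level 1.97-fold lower, and limma did not call it (adjusted p = 0.320 over 501 probes). Of all tested probes 16.4% likewise had every Tg79 array below every wild-type array. Against WT2, on the same slide, the Tg79 arrays differed by -1.43 to -0.94. The spread within Tg9, which the fit shares over all groups, enters this SE: with only the Tg79 and wild-type arrays fitted the difference was -0.96 and limma called it (adjusted p = 0.0458). A fit with Tg9-1 as the only Tg9 array, which drops the other arrays of that line, also gave a call (-0.96, adjusted p = 0.0427), as did the authors' deposited values (-2.88, adjusted p = 0.00642, where the median of all tested probes was -0.86). Subtracting the deposited background column, which rises with the spot itself, gave 1.07, not called.

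Tg9 against wild type turned on single arrays for miR-223-3p. The log2 difference was 0.32 ± 0.56 (SE; interval -0.99 to 1.63; limma adjusted p = 0.990), -0.38 without Tg9-1, 0.91 without the array labelled Tg9-3, and 1.73 with Tg9-1 alone as the Tg9 array (adjusted p = 0.0762, the lone array assumed to vary like the other groups). Tg79, on another slide, differed from Tg9 by -1.29 ± 0.56 (adjusted p = 0.323). This became -0.61 without Tg9-1, and -2.68 with Tg9-1 as the only Tg9 array, where it was called (adjusted p = 0.0303). It was called as well with the authors' deposited values (-2.97, adjusted p = 0.0145, where the median of all tested probes was -0.57).

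The other arm of this hairpin, miR-223-5p, was above the limit on 0 of 9 arrays. The macrophage miRNA miR-511-3p comes from an intron of the mannose receptor gene Mrc1. It was above the limit on 2 wild-type, 2 Tg9 and 0 Tg79 arrays, at no more than 1.12 times the limit. On wild-type arrays 35.1% to 40.8% of all probes exceeded the limit, on Tg9 arrays 33% to 42.6% and on Tg79 arrays 24.4% to 32.3%. The log2 difference of miR-511-3p in Tg79 from wild type was -0.02 (limma adjusted p = 0.948). Its highest normalized value was 6.27, on Tg79-1. The partner miR-511-5p was above the limit on 0 arrays.

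The 3 tested miRNAs whose profile over the 9 arrays was nearest to miR-223-3p, by the root mean square difference of centred log2 values, were miR-22-3p (0.58), miR-146b-5p (0.64) and miR-140-3p (0.66). The profile of miR-223-3p itself had a root mean square spread of 0.83. MiR-22-3p read 8.62 to 9.02 in wild type and 7.77 to 8.27 in Tg79. MiR-146b-5p read 8.57 to 9.28 in wild type and 7.75 to 7.87 in Tg79. MiR-140-3p read 8.95 to 9.48 in wild type and 8.10 to 8.95 in Tg79, where the ranges meet. Tg9-1, where miR-223-3p was highest at 9.10, was not the highest array for any of these 3, since each peaked on the array labelled Tg9-2.

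**Figure D3:**
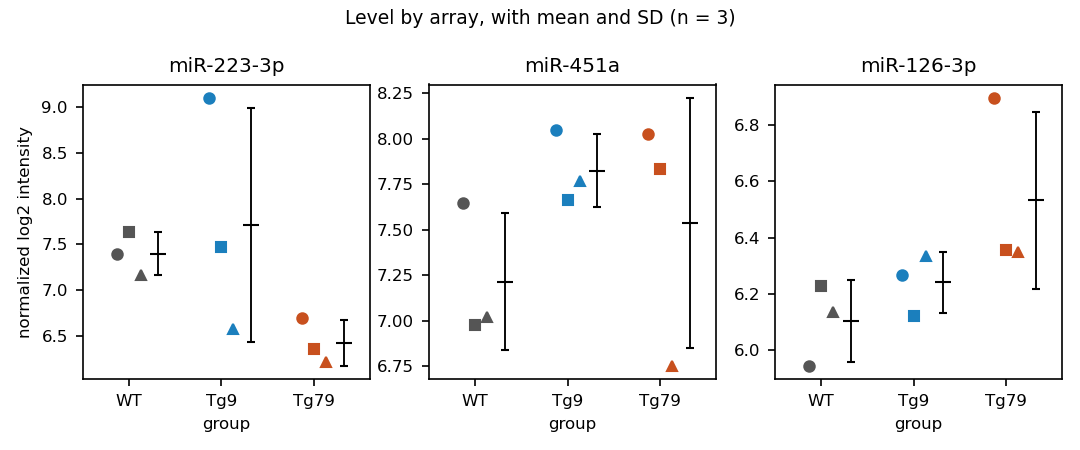
Normalized log2 intensity of miR-223-3p, miR-451a and miR-126-3p on each array by group, with shapes for replicate numbers 1 (circle), 2 (square) and 3 (triangle) and, beside them, the mean and SD (n = 3); each panel has its own axis. All Tg79 points of miR-223-3p lie below the wild-type points, from 6.21 to 6.69 against 7.16 to 7.64, and the Tg9 points span 6.57 to 9.10.

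MiR-451a, the red-cell marker, was above the limit on every array, at 1.46 to 4.56 times. Its spot read 278, 115 and 171 intensity units on WT1 to WT3. It read 226 on Tg9-1, and 199 and 195 on the arrays labelled Tg9-2 and Tg9-3. On the Tg79 arrays 1 to 3 it read 213, 169 and 90.4. The groups overlapped on this scale, with WT1 the highest array and Tg79-3 the lowest.

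After normalization miR-451a averaged 7.22 ± 0.38 over the wild-type arrays, 7.83 ± 0.20 over Tg9 and 7.54 ± 0.69 over Tg79 (SD, n = 3, log2 scale). All 3 Tg9 arrays then lay above the 3 wild-type arrays, by 0.01 between the array labelled Tg9-2 and WT1, where 2.99% of tested probes did so. The log2 difference was 0.61 ± 0.34 (SE; interval -0.19 to 1.41; limma adjusted p = 0.990), 0.83 with Tg9-1 as the only Tg9 array, and 0.18 against WT1 alone, on the same slide. Tg79 differed from wild type by 0.32 ± 0.34 (adjusted p = 0.597), and by -0.39 with the authors' deposited values, which is 0.46 above their median over all tested probes of -0.86 (0.36 above the median with quantile normalization). The direction between the lines rested on Tg79-3: Tg79 minus Tg9 was -0.29 ± 0.34 (adjusted p = 0.667) and 0.10 without that array.

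MiR-144-3p, the partner of miR-451a in the red cell lineage, was not detected. Its spot lay at 0.77 to 0.92 times the limit over the 9 arrays, between 39.5 and 58.6 intensity units, and it was not tested. The other arm, miR-144-5p, was also below the limit on all 9 arrays. The mature miR-144-3p has 6 G or C bases of 20 (30%), the lowest share of the 5 sequences shown, against 36.4% to 50% in the others. Whether that share bears on the signal was not tested. Another red-cell probe, which carries the names miR-486-5p and miR-3107-5p, was above the limit on all 9 arrays at 1.01 to 1.35 times. Its level differed by 0.19 in Tg79 (limma adjusted p = 0.309).

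The profiles nearest to miR-451a were those of miR-143-3p (root mean square difference 0.37), miR-511-3p (0.38) and miR-2137 (0.38), against its own spread of 0.45. Opposite to the miR-451a hairpin, on the minus strand 11 bases from the mature sequence, lies miR-451b. It was above the limit on 6 arrays, all 3 of wild type (1.20 to 1.77 times), the arrays labelled Tg9-2 and Tg9-3 (1.36 and 1.55 times) and Tg79-2 (1.00 times). MiR-451b was singled out after its values were seen.

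Among the endothelial markers miR-126-3p was slightly above the limit and miR-126-5p was not, on all but 1 array. The miR-126-3p spot read 57.2, 62.2 and 78.6 intensity units in WT1 to WT3. It read 63.7 on Tg9-1, 53.1 and 63.3 on the arrays labelled Tg9-2 and Tg9-3, and 108, 66.9 and 68.7 on Tg79-1 to Tg79-3. Only WT1 was below its limit, and Tg79-1 was the highest array, at 1.42 times the limit.

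After normalization miR-126-3p averaged 6.10 ± 0.15 over the wild-type arrays, 6.24 ± 0.11 over Tg9 and 6.53 ± 0.31 over Tg79 (SD, n = 3, log2 scale). All 3 Tg79 arrays were above all wild-type arrays, as at 13% of tested probes, and above all Tg9 arrays, as at 8.98%. No marker had every Tg79 array below every Tg9 array, as 10.4% of tested probes did. Before normalization the groups overlapped in miR-126-3p, with 78.6 units on WT3 beside 66.9 and 68.7 on Tg79-2 and Tg79-3. As a ratio to the limit WT2 stood at 1.16 times and the array labelled Tg9-3 at 1.35, above Tg79-3 at 1.11. The log2 difference of Tg79 from wild type was 0.43 ± 0.16 (SE; 95% interval 0.05 to 0.81; 1.35-fold). This was the 1 marker with an unadjusted p under 0.05 (0.0302), where 24.6% of all tested probes had one, and limma did not call it (adjusted p = 0.162). Without Tg79-1 the difference was 0.26, and against WT2 on the same slide it was 0.30. In Tg9 it was 0.14 ± 0.16 (adjusted p = 0.990), and 0.16 with Tg9-1 as the only Tg9 array.

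MiR-126-5p, the other strand of the same hairpin, was below the limit on 8 arrays, at 0.78 to 0.94 times. On the array labelled Tg9-3 it read 150 intensity units, 3.21 times the limit, and 7.44 on the normalized log2 scale against 5.82 to 5.97 elsewhere. MiR-126-3p on that array stood at 1.35 times its limit. Of 69 probes above the limit on a single array this was the highest by that ratio. The spot is 1 of 1 for this miRNA, so no second spot on the array can be compared. Of its neighbours in the print grid miR-126-3p read 63.3 and let-7i-5p 447 units, and the 3 in the next row read 41.0 to 44.7. On the other arrays let-7i-5p read 504 to 1699 units while miR-126-5p stayed below its limit. The high Tg9 value thus rests on that 1 array, and miR-126-5p was not tested.

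The stromal markers were at the limit, and they crossed it on nearly the same arrays. MiR-145a-5p and miR-125b-5p were above it on the same 5 arrays, WT1, the arrays labelled Tg9-2 and Tg9-3, Tg79-1 and Tg79-2, and miR-143-3p on these and on WT2 and WT3. The highest ratio to the limit was 1.24 for miR-143-3p, 1.13 for miR-145a-5p and 1.16 for miR-125b-5p. All 3 were below the limit on Tg9-1 and Tg79-3. On Tg9-1 33% of all probes were above it and on Tg79-3 29.1%, while Tg79-1, where all 3 were above it, had 24.4%.

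For miR-143-3p, of smooth muscle, the normalized log2 values were 6.05, 6.09 and 6.10 on WT1 to WT3, 6.07 on Tg9-1, 6.09 and 6.20 on the arrays labelled Tg9-2 and Tg9-3, and 6.55, 6.47 and 5.93 on Tg79-1 to Tg79-3. On this scale Tg79-1 and Tg79-2 lay above every other array and Tg79-3 below every other. Before normalization miR-143-3p read 75.3 intensity units on WT3, above Tg79-2 at 71.5. As a ratio to the limit the array labelled Tg9-3 stood at 1.23 times, above Tg79-1 at 1.13. The log2 difference of Tg79 from wild type was 0.24 ± 0.15 (SE, limma adjusted p = 0.378). Without Tg79-3 it was 0.44 and was called (limma adjusted p = 0.0296), as were 5.81% of the 499 probes tested in that fit. MiR-145a-5p read 5.96 to 6.13 over wild type, 5.89 to 6.09 over Tg9 and 5.99 to 6.52 over Tg79, and its Tg79 difference was 0.20 ± 0.14. MiR-125b-5p read 6.01 to 6.05 over wild type, 5.92 to 6.13 over Tg9 and 5.86 to 6.43 over Tg79, with a Tg79 difference of 0.18 ± 0.15. For both the groups overlapped, and neither was called (limma adjusted p = 0.405 and 0.475). In Tg9 the 3 differences lay between -0.03 and 0.04 (adjusted p = 0.990 each), and between -0.14 and -0.0089 with Tg9-1 as the only Tg9 array.

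The opposite arm miR-143-5p was above the limit on all 9 arrays, at 1.56 to 2.17 times. Its normalized log2 level ran from 6.63 to 6.80 over wild type, 6.79 to 6.87 over Tg9 and 6.93 to 7.08 over Tg79, so all Tg79 arrays lay above all others. Of all tested probes 13% had all Tg79 arrays above wild type and 8.98% above Tg9. This order appeared only after normalization. The spots themselves overlapped, at 97.8 to 144 intensity units in wild type and 96.8 to 118 in Tg79. As a ratio to the limit the direction was reversed, at 1.79 to 1.98 times in wild type and 1.56 to 1.68 times in Tg79. The log2 difference of Tg79 from wild type was 0.27 ± 0.07 (SE, limma adjusted p = 0.0822), not called. The arms miR-145a-3p, miR-125b-1-3p and miR-125b-2-3p were above the limit on 0 arrays. So of the 6 other arms listed 1 was above the limit on any array. Of the 4 miRNAs that share the miR-125b-5p seed, miR-6394 was above the limit on 8 arrays and miR-351-5p on 7. MiR-125a-5p was above it on 1 and miR-6367 on 0.

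Of the 12 further miRNAs listed for the same cell classes 10 had a probe and 5 were tested. Limma called 0 of them in any comparison, and 0 had an unadjusted p under 0.05. Of all tested probes 4.39% were called in Tg79 against wild type and 0% in the other comparisons. The unadjusted shares were 24.6% in Tg79 against wild type, 0.599% in Tg9 against wild type and 15.4% in Tg79 against Tg9. MiR-214-3p, a miRNA of mesenchymal cells, was above the limit on all 9 arrays, at 1.55 to 2.65 times, and differed by 0.31 ± 0.16 in Tg79 (SE, adjusted p = 0.266). MiR-199a-5p, encoded in the same transcript as miR-214, was above it on 3 arrays, and its Tg79 difference was 0.14 (adjusted p = 0.409). MiR-100-5p and miR-99a-5p, encoded near the miR-125b loci, were below it on all 9. MiR-10b-5p, of mesenchymal cells, was above it on 8 arrays, at up to 3.64 times, and differed by -0.23 in Tg79 (adjusted p = 0.702). MiR-10b, miR-511, miR-100 and miR-99a were singled out after their values were seen.

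The number of markers that passed in Tg79 differed between scalings. Limma called 0 of 6 with quantile normalization, with cyclic loess and with the 75th percentile over all probes. With each array scaled to the 75th percentile of the probes above the limit on all arrays, limma called 4 of the 6 markers higher in Tg79, namely miR-126-3p (0.99), miR-145a-5p (0.81), miR-143-3p (0.82) and miR-125b-5p (0.79), with adjusted p of 0.0206 to 0.0329. The median over all probes was then 0.48 and 36.9% of all probes were called. Relative to that median the 4 differences were 0.32 to 0.51, beside 0.21 to 0.47 with quantile normalization relative to its own median of -0.04.

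Of the 6 lymphocyte miRNAs tested, limma called 1 higher and 0 lower in Tg79, and 5 had an unadjusted p under 0.05, where 4.39% and 24.6% of all tested probes did so. The one called was miR-181b-5p, which acts in lymphocyte maturation (log2 difference 1.14 ± 0.22, SE, adjusted p = 0.0387). MiR-142-3p, made by all blood cells, differed by -1.07 ± 0.31 (adjusted p = 0.0921) and miR-181a-5p by 0.98 ± 0.37 (adjusted p = 0.162). MiR-150-5p, singled out after its values were seen, read 10.26, 9.20 and 12.41 on Tg79-1 to Tg79-3 against 12.27 to 13.12 in wild type. Tg79-3, where the stromal markers and miR-451a were lowest in the group, was thus the Tg79 array closest to wild type in miR-150-5p. Whether lymphocyte and marker levels on these arrays are linked was not tested.

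Of 13 miRNAs listed for tissues other than spleen 8 were above the limit on 0 arrays and 3 on 1 array. The 8 include the listed miRNAs of liver, muscle and embryonic stem cells. Of its epithelial miRNAs miR-200c-3p and miR-141-3p were exceptions, above the limit on 8 and 7 arrays. Their Tg79 differences were -0.48 ± 0.19 and -0.42 ± 0.19 (SE, limma adjusted p = 0.182 and 0.230). In the number of arrays above the limit, miR-126-3p (8) and miR-143-3p (7) equalled this pair, and miR-223-3p and miR-451a (9 each) exceeded it. MiR-145a-5p and miR-125b-5p, on 5 arrays each, lay below the pair. MiR-126-5p, on 1 array, and miR-144-3p, on 0, stood with the other tissue miRNAs.

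**Figure D4:**
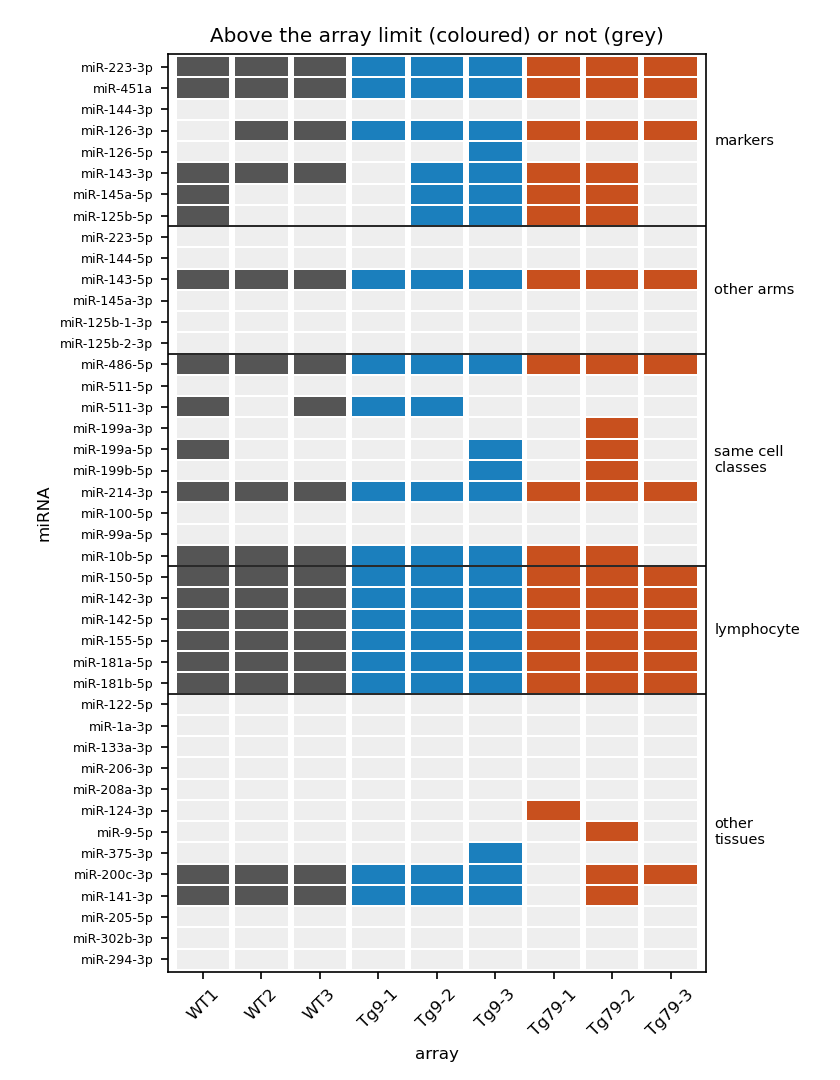
Each cell is 1 miRNA (rows, grouped by list) on 1 array (columns), coloured by group where its spot exceeded the array's background limit and grey where it did not. The 6 lymphocyte miRNAs are filled on all 9 arrays, the markers are filled on 0 to 9, and 11 of the 13 other-tissue miRNAs are filled on at most 1.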

How the data were processed

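RNA of splenic B cells was read on 9 one-colour Cy5 miRNA arrays, 3 per group. Per the file headers, the deposited intensity is the median pixel signal of each spot at the red laser line, not normalized. The deposited background column follows the spot (r on the log2 scale 0.982 to 0.995 across spots, which are not independent replicates) and was used only in an alternative. The authors' deposited log2 table, for which the sources used here give no method, was used in another, with identifiers moved by 5 rows, where Spearman's rho with the scanner values was 1 instead of 0.1415 to 0.1707.

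Intensities were corrected with normexp (offset 50), taken to log2 and quantile normalized over 1265 probes in R 4.3.3 with limma 3.58.1. A probe was above background if its spot exceeded the 95th percentile of 24 negative control spots, and was tested if so on at least 3 of 9 arrays. One limma model of 3 group means gave each difference, two-sided, with Benjamini-Hochberg adjustment over 501 probes. Each marker has 1 spot per array, so no spread between spots can be given. All 8 markers and each measured other arm are named, of other lists the called members and the 3 lowest p for Tg79 against wild type, and for markers above background on all arrays the 3 nearest profiles. The members and lists were chosen with earlier results of these data known. The mRNA arrays were not used here, because their probes could not be named. Alternatives changed the background correction, scaling, filter, variance model, block, slide and arrays included.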

Additional observations from a re-analysis of the deposited data

How the results depend on the processing

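Of the differences of the 6 tested markers in 3 comparisons, recomputed under each alternative, 383 kept direction and side of the threshold, 27 changed sign and 10 became called. With 75th percentile scaling 4 markers were called in Tg79 against wild type. One, each time miR-223-3p, was called there from the authors' values, in a fit of Tg79 and wild type only, and with Tg9-1 as the only Tg9 array, where 20.5%, 4.79% and 5.39% of all tested probes were called. Leaving out 1 array gave 0 to 1, the 1 without Tg79-3 being miR-143-3p, beside 5.81% of all probes tested there. In Tg79 against Tg9 1, miR-223-3p, was called with the authors' values and with Tg9-1 alone, beside 4.34% and 0.225% of all probes. No marker was called in Tg9 against wild type under any alternative run, and the replicate block called 0 markers in each comparison. Deviations of same-numbered arrays from their group means had r between -0.4271 and 0.3768 across probes, with both signs among the pairs. Arrays of different numbers were not compared, so whether a number marks anything shared was not tested. The block moved the calls over all probes in Tg79 against wild type from 22 to 0.

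The deposited background column follows the spot and turned, in Tg79 against wild type, miR-223-3p to 1.07, miR-126-3p to -0.0056, miR-143-3p to -0.014 and miR-145a-5p to -0.0036. In Tg9 against wild type it turned miR-145a-5p to 0.0048 and miR-126-3p to -0.0023. In Tg79 against Tg9 it turned miR-143-3p to -0.015, miR-145a-5p to -0.0083, miR-125b-5p to -0.0077 and miR-126-3p to -0.0033. MiR-451a in Tg79 against wild type turned to -0.39 with the authors' values and -0.0092 with the 75th percentile over all probes, an alternative chosen after seeing the data, but lay 0.46 and 0.031 above the median of all probes, so its direction relative to that median did not turn. In Tg79 against Tg9 it turned to 0.39 with slide as a factor and ran from -0.55 to 0.10 with 1 array left out. In Tg9 against wild type miR-145a-5p turned to 0.15 with 75th percentile scaling, 0.072 with that over all probes, 0.16 with the authors' values and 0.0067 with cyclic loess, and ran from -0.071 to 0.030 with 1 array left out. There miR-143-3p turned to -0.16 with the authors' values (0.065 above their median) and ran from -0.0014 to 0.068 with 1 array left out, miR-125b-5p turned to -0.0035 with array weights and ran from -0.033 to 0.075, and miR-223-3p ran from -0.38 to 0.91. With Tg9-1 as the only Tg9 array, also chosen after seeing the data, miR-143-3p read -0.0089 and miR-125b-5p -0.10. The cause of these turns was not tested.

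With a limit from the 95th percentile of the BLANK spots, added after seeing the data, miR-144-3p was above it on 1 array and miR-126-5p on 2, while the highest negative control spot as the limit left miR-223-3p above it on 8 arrays and miR-126-3p on 7. Signal over background limits miR-126, the stromal markers and, in Tg79, miR-223-3p, since values near the limit have little room to fall. In Tg79 against wild type the number of all probes called was 0 to 29 with 1 array left out and 22 with all 9, 0 with slide as a factor or no filter, 39 with slide as a random block, 79 with array weights and 185 with 75th percentile scaling.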

Other observations

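Both arms of miR-9, a miRNA of nerve tissue, crossed the background limit on Tg79-2 and on no other array. MiR-9-5p read 133 intensity units there, 2.30 times the limit, and 40.1 to 59.0 on the other 8 arrays. MiR-9-3p read 71.3 units there, 1.24 times the limit, and 37.6 to 58.9 elsewhere. After miR-126-5p on the array labelled Tg9-3, miR-9-5p was the highest of the 69 probes that exceeded the limit on a single array, and 27 of the 69 were on the array labelled Tg9-3. Both probes were singled out for these values.

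The epithelial pair miR-200c-3p and miR-141-3p, which belong to the same miRNA family, was highest on the same arrays. MiR-200c-3p read 6.56 to 6.76 on the normalized log2 scale in wild type and 5.89 to 6.34 in Tg79. MiR-141-3p read 6.35 to 6.88 in wild type and 6.02 to 6.29 in Tg79. The highest 2 arrays of both were WT2 and the array labelled Tg9-2, and limma called neither.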
